A study of Rattus norvegicus with 4 samples.

Results

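The genes described here are 10 members of the bone morphogenetic protein (BMP) pathway in cultured rat aortic smooth muscle cells: the ligands Bmp2, Bmp4 and Bmp6, the receptors Bmpr1a and Bmpr2, the target genes Id1, Id2 and Id3, the intracellular inhibitor Smad6 and the secreted antagonist Grem1. They were chosen by name, with earlier results of these data known. Every probe set annotated to exactly 1 of these symbols was used: 19 of the 31099 probe sets on the array, for 10 of 14218 named genes. Of the 19 probe sets, 15 were above a floor of intensity 28.1 on at least 1 array, and each of the 10 genes had at least 1 such probe set. The floor is the 40th percentile of the intensities pooled from the 4 arrays, and a value under it was treated as the floor.

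Cells of Sprague-Dawley rats were kept with serum for 3 days and without it for 3 days, and RNA was taken 24 h after a factor or its vehicle was added. The first group received interleukin-1b (IL-1b), an inflammatory cytokine, at 2.5 ng/mL, and its control received the IL-1b vehicle, 10 mM acetic acid with bovine serum albumin (BSA) at 0.1%. The other group received PDGF-DD, a platelet-derived growth factor acting mainly on PDGF receptor beta, at 30 ng/mL, and its control received the PDGF-DD vehicle, BSA at 0.01%. Each group was 1 sample on 1 array. No difference below therefore has a replicate check, a standard deviation or a p-value, and the number of arrays limits the precision of each value. For want of replicates, the PDGF-DD vehicle array was set against the IL-1b vehicle array, neither of which had received a factor. These vehicles differ in acetic acid and BSA, so the difference between them is not that of replicates. Their arrays also differed in the bacterial spike-in control BioC and in Mki67, a marker of dividing cells (values below). The parts of these in the vehicle difference cannot be told apart.

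BMP ligands are secreted dimers of the TGF-beta superfamily. They bring type I receptors, such as the product of Bmpr1a, together with type II receptors, such as that of Bmpr2, and the active complex phosphorylates SMAD1, SMAD5 and SMAD9, which enter the nucleus with SMAD4. The ID genes are among the best known targets of these SMADs: ID proteins have a helix-loop-helix domain but no DNA-binding region, so they hold E proteins in dimers that cannot bind DNA. In vascular smooth muscle the pathway is known for its part in growth control and calcification, and loss-of-function mutations of the human gene BMPR2 are a cause of heritable pulmonary arterial hypertension.

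The sequences just upstream of 4 of the genes are shown because most of the values below concern these genes: Bmp6 had the largest difference of the members with either factor, and the 3 ID genes, which are related in sequence and share a class of function, had unlike values over the same arrays. Each line gives the 250 bases before the annotated gene start, 5′ to 3′ on the gene's strand, from RefSeq on GRCr8. Capitals mark the GC box GGGCGG, the core of SP1 sites, and the TATA box TATAAA, each on either strand, so that GGGCGG may read CCGCCC.
Bmp6, chr17:26675262-26675511, minus strand: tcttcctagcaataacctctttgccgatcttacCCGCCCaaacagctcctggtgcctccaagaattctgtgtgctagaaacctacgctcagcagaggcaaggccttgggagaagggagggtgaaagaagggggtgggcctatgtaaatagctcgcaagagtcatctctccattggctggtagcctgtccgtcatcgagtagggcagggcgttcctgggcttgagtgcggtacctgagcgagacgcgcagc
Id1, chr3:161671314-161671563, plus strand: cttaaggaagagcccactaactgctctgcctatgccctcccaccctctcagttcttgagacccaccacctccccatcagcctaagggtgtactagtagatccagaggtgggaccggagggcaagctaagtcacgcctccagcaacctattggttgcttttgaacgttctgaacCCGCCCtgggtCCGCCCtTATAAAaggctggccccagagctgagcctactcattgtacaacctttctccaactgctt
Id2, chr6:47470996-47471245, minus strand: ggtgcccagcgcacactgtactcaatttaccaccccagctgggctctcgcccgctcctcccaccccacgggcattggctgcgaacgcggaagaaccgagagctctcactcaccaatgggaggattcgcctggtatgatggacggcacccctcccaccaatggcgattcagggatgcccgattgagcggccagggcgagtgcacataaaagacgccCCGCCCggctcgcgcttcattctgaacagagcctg
Id3, chr5:153656041-153656290, plus strand: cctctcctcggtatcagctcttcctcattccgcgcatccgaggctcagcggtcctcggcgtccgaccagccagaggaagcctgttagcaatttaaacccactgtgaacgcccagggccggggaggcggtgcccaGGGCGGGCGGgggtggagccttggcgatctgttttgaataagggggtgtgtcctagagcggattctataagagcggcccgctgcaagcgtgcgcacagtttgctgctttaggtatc

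The RefSeq table held the upstream sequence of 8 of the 10 members. GGGCGG stood in 7 of these 8, against 32.4% of 27457 upstream windows of the same length, and Bmpr1a was the member without it. G and C made up 54.8% (Id1) to 72.0% (Grem1) of those 7 windows and 28.4% of that of Bmpr1a. The median over all windows was 52.0%, and the part of base content in the matches was not tested. The matches in Id3 overlap each other. TATAAA stood in 2 of 8, Id1 and Bmpr1a, against 13.1% of all windows. In Id1 the TATAAA began at base -59 from the start, just after a GC box. The GC-rich BMP element GGCGCC stood in Grem1 only of the 8, against 9.24% of all windows, and the SMAD-binding letters CAGAC in Bmp4 only, against 42.8%. The AP-1 element TGANTCA was found in Bmpr1a (6.36% of all windows). A match says only that these letters stand in the window.

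On each array the share of probe sets over the floor lay between 58.3% and 61.5%. Of 7 smooth muscle markers, 7 exceeded the floor on at least 1 array, though Des only with the IL-1b vehicle, at 42.6. The 5 adventitial fibroblast markers given below did so too, so this count alone does not tell the cell type. Of 6 endothelial markers, Pecam1, Kdr, Vwf and Tie1 were at the floor on all 4 arrays, while Erg and Tek exceeded it on some arrays, at up to 52.6 for Erg. Of 6 leukocyte and macrophage markers, Ptprc, Cd68, Itgam, Csf1r and Cd3e were at the floor throughout, while Cd14 read 1333 with IL-1b and 1121 with its vehicle, and 1117 with PDGF-DD and 1220 with its vehicle. Of 5 epithelial markers, Cdh1 and Krt19 were at the floor throughout, and the list summed to 168 with IL-1b and 148 with its vehicle, and to 321 with PDGF-DD and 280 with its vehicle. Of the bacterial spike-in controls, which hold no RNA of the cells, BioC differed between the pairs: its 4 probe sets read 452 to 590 with IL-1b and 498 to 654 with its vehicle, and 153 to 187 with PDGF-DD and 194 to 264 with its vehicle. BioB and BioD, of which only a part of the probe sets was read, did not separate the pairs. The 3 BioB probe sets used were at 199 to 217 with IL-1b and 171 to 237 with its vehicle. They were at 155 to 165 with PDGF-DD and 196 to 240 with its vehicle. Smooth muscle markers summed to an intensity of 8453 with IL-1b and 27111 with its vehicle, and to 4532 with PDGF-DD and 19891 with its vehicle. In such bulk samples fewer cells of a type and less RNA per cell cannot be told apart.

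**Figure D1:**
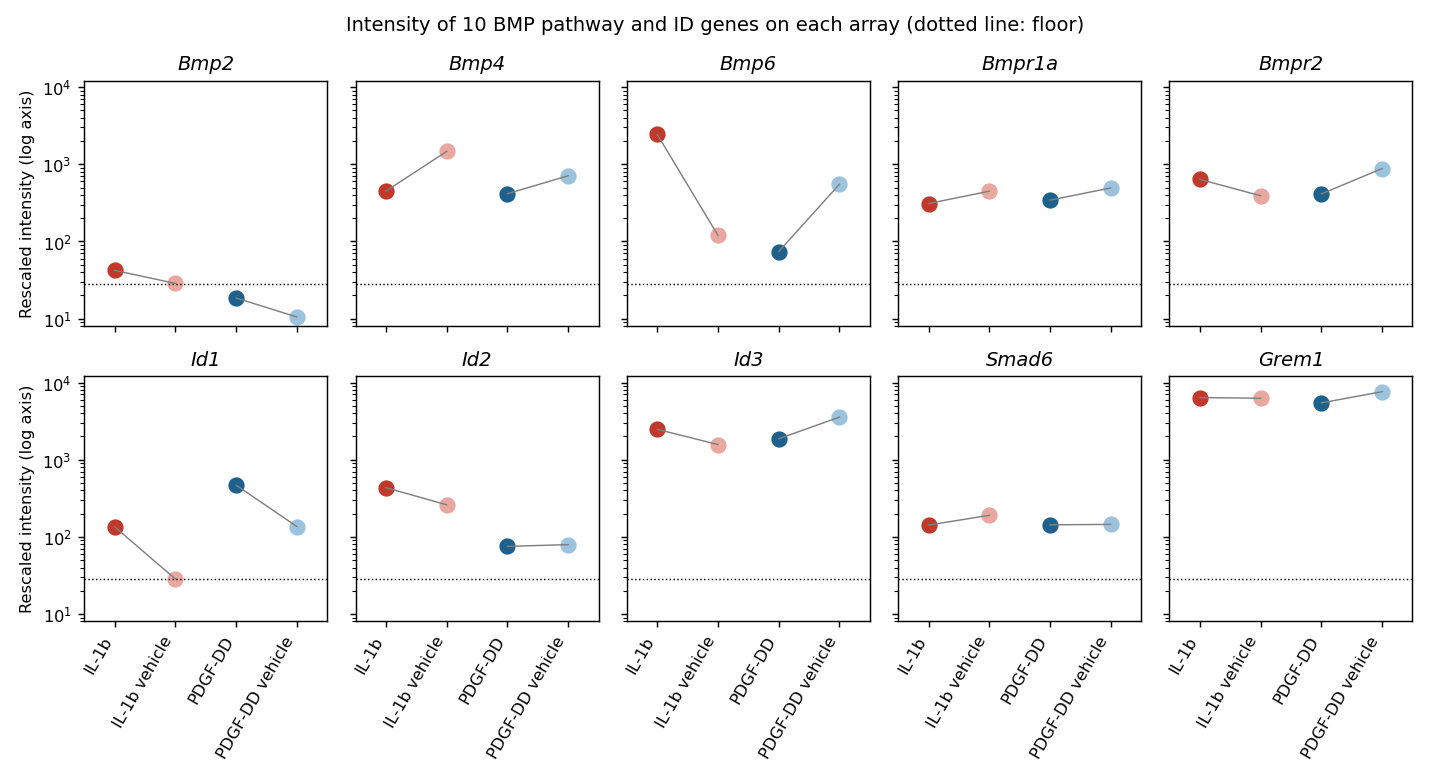
Rescaled intensity (log axis) of the 10 genes, each by the probe set that stands for it, on the IL-1b, IL-1b vehicle, PDGF-DD and PDGF-DD vehicle arrays; each point is 1 array, grey lines join a factor to its vehicle and the dotted line is the floor of 28.1. Bmp6 spans from 74.0 to 2446, whereas Smad6 stays between 142 and 190.

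The members differed most between the vehicle arrays. There 6 of 10 members met the 2-fold rule (4 higher and 2 lower with the PDGF-DD vehicle than with the IL-1b vehicle), against 10.5% of 10389 genes. With IL-1b 3 of 10 members were at least 2-fold from its vehicle (2 higher and 1 lower), against 11.6% of 10679 genes, and with PDGF-DD 3 of 9 (1 higher and 2 lower), against 8.91% of 10142 genes. Median absolute log2 ratios of the members were 0.68 with IL-1b, 0.77 with PDGF-DD and 1.11 between the vehicles, against 0.29, 0.32 and 0.32 over all genes tested. The signed medians were 0.61, -0.53 and 0.21, against 0.02, 0.01 and -0.05 over all genes. All 3 comparisons share arrays, since each factor is read against a vehicle that is itself part of the vehicle comparison. Because the members were chosen with earlier results of these data known, their shares beside those of all genes are a description and not a test.

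**Figure D2:**
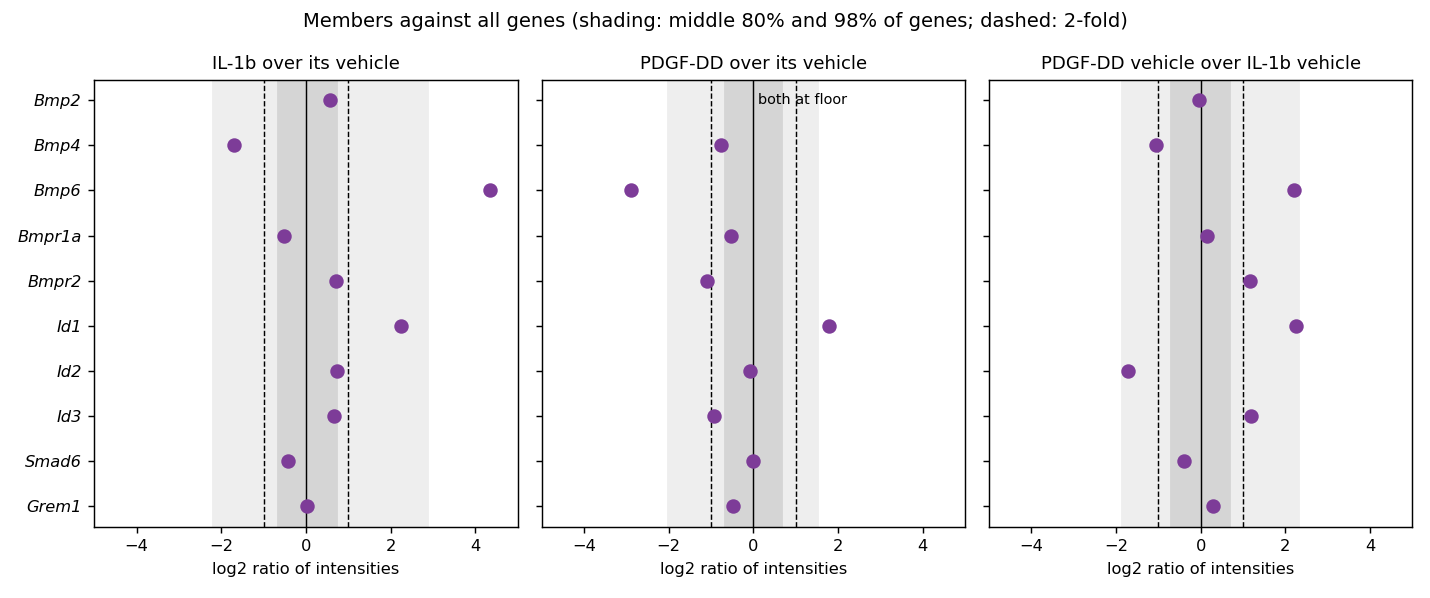
Log2 ratios of the 10 genes (points) in the 3 comparisons, with the middle 80% (dark) and 98% (light) of all genes tested shaded and dashed lines at 2-fold. Bmp6 lies outside the light band with IL-1b (4.35) and with PDGF-DD (-2.90), and Id1 outside it with PDGF-DD (1.78).

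Among the ligands, Bmp6 differed by the largest factor of all members with either treatment, and in opposite directions. BMP6 is best known for its part in iron balance in the liver and in bone formation. Its intensity was 2446 with IL-1b and 120 with the IL-1b vehicle, and 74.0 with PDGF-DD and 552 with the PDGF-DD vehicle. The IL-1b array was thus the highest of the 4 and the PDGF-DD array the lowest, with the vehicles between them and far apart from each other. The ratio was 20.4-fold higher with IL-1b, which placed Bmp6 40th among 10679 genes ordered from the highest ratio, and 7.45-fold lower with PDGF-DD, 27th from the lowest of 10142 genes.

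The vehicle arrays themselves were 4.61-fold apart in Bmp6, higher on the PDGF-DD vehicle array. Read against the PDGF-DD vehicle, Bmp6 was still 4.43-fold higher with IL-1b. Read against the IL-1b vehicle, it was 1.62-fold lower with PDGF-DD, under 2-fold. As a yardstick, the absolute log2 ratio between the vehicles was taken for the 519 genes of nearest intensity. Its 99th percentile is called the vehicle limit here. It holds any difference between the 2 vehicle cultures and does not measure the spread of replicates. The IL-1b log2 ratio of Bmp6, 4.35, was past its limit of 2.19, and the PDGF-DD log2 ratio, -2.90, was inside its limit of 3.34. No other member that was at least 2-fold from its vehicle was past its limit.

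Bmp6 has 4 probe sets. The second read 1147 with IL-1b and 106 with its vehicle, and 30.6 with PDGF-DD and 300 with its vehicle, so its order over the arrays was the same. Its ratios were 10.8-fold higher with IL-1b and 9.81-fold lower with PDGF-DD, and against the IL-1b vehicle it was 3.47-fold lower with PDGF-DD. The third was above the floor only with IL-1b, at 114, and thus at least 4.08-fold higher there. The fourth was at the floor on all 4 arrays.

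**Figure D3:**
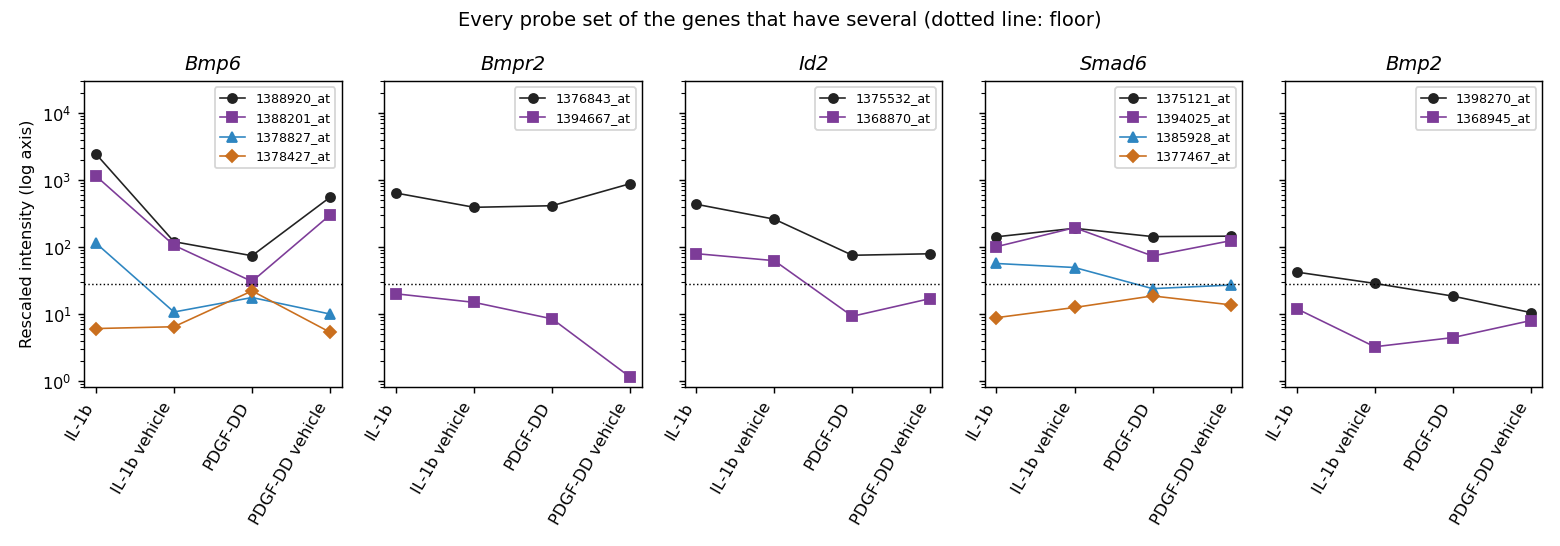
Rescaled intensity (log axis) of every probe set of the 5 genes that have more than 1, on the 4 arrays; each line is a probe set and the dotted line is the floor. The upper pair of Bmp6 probe sets run in parallel, and both probe sets of Id2 are lower on the PDGF-DD arrays than on the IL-1b arrays, whereas the lower probe sets of Bmpr2 and Bmp2 lie under the floor throughout.

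Bmp4, which acts in early patterning and in lung and vessel development, was lower with both factors. Its intensity was 450 with IL-1b and 1468 with the IL-1b vehicle, and 416 with PDGF-DD and 710 with the PDGF-DD vehicle. The IL-1b vehicle array stood above the other 3, and both treated arrays were at nearly the same level. With IL-1b Bmp4 was 3.26-fold lower (log2 ratio -1.71, vehicle limit 2.19), and 1.58-fold lower against the PDGF-DD vehicle. With PDGF-DD it was 1.71-fold lower, under the 2-fold rule, and 3.53-fold lower against the IL-1b vehicle. The vehicle arrays were 2.07-fold apart, with the PDGF-DD vehicle the lower.

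Bmp2, a ligand known for inducing bone and calcification, stayed close to the floor. It read 42.2 with IL-1b and 28.6 with its vehicle, and 18.5 with PDGF-DD and 10.5 with its vehicle, these last under the floor. The highest value, with IL-1b, was 1.48-fold over its vehicle. The other Bmp2 probe set was at the floor on all 4 arrays. At this signal a difference in Bmp2 was not detectable beyond these values.

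Of the receptors, Bmpr1a varied little. Bmpr1a encodes ALK3, a type I receptor with kinase activity. It read 310 with IL-1b and 448 with its vehicle, and 343 with PDGF-DD and 494 with its vehicle. Both treated arrays were below both vehicle arrays, by 1.45-fold with IL-1b and 1.44-fold with PDGF-DD in each case against its own vehicle. The vehicles were 1.10-fold apart, the smallest vehicle difference among members above the floor on all 4 arrays.

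Bmpr2, the type II receptor, read 638 with IL-1b and 391 with its vehicle, and 413 with PDGF-DD and 881 with its vehicle. The PDGF-DD vehicle array was the highest, and the PDGF-DD array was close to the IL-1b vehicle array. Bmpr2 was 1.63-fold higher with IL-1b against its own vehicle and 1.38-fold lower against the PDGF-DD vehicle, so its direction depended on the vehicle. With PDGF-DD it was 2.13-fold lower against its own vehicle and 1.06-fold higher against the IL-1b vehicle. The vehicle arrays were 2.25-fold apart, more than either factor was from its own vehicle. A second Bmpr2 probe set was at the floor on all 4 arrays.

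The 3 ID genes differed from each other in their order over the arrays. Id1 read 135 with IL-1b and 28.4 with its vehicle, and 467 with PDGF-DD and 136 with its vehicle. The IL-1b vehicle array lay beside the floor, the IL-1b array and the PDGF-DD vehicle array were level, and the PDGF-DD array stood above the rest. Id1 was 4.76-fold higher with IL-1b (log2 ratio 2.25, vehicle limit 2.61) and 3.44-fold higher with PDGF-DD (1.78, limit 2.75). It ranked 184th from the highest of 10679 genes with IL-1b and 55th of 10142 with PDGF-DD. Because the IL-1b vehicle value lay beside the floor, the IL-1b log2 ratio was 0.36, and the vehicle log2 ratio 0.37, when the floor was set at the 60th percentile, and neither then met the rule.

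The IL-1b ratio of Id1 depended on the vehicle array used. Set against the other vehicle, Id1 with IL-1b had a log2 ratio of -0.01, while with PDGF-DD Id1 was 16.5-fold higher against the IL-1b vehicle (4.04). The vehicles were 4.78-fold apart in Id1, with the PDGF-DD vehicle the higher. With PDGF-DD Id1 was the single member of 3 that stood at least 2-fold from both vehicle arrays in the same direction, and with IL-1b Bmp6 was the single member of 3. This holds for the probe set that stands for each gene. By its second probe set Bmp6 was also lower than both vehicles with PDGF-DD, 9.81-fold and 3.47-fold. The PDGF-DD value of that probe set, 30.6, lay beside the floor of 28.1, which limits both folds. Over all genes, 41.9% of the 1236 that were at least 2-fold from the vehicle with IL-1b, and 73.7% of the 904 with PDGF-DD, were also that far from the other vehicle array. Mki67, a marker of dividing cells, read 64.8 with IL-1b and 83.6 with its vehicle, and 1799 with PDGF-DD and 858 with its vehicle. The vehicle arrays were 10.3-fold apart in Mki67. Mki67 and Id1 were thus both highest with PDGF-DD and, of the vehicles, higher with the PDGF-DD vehicle, while only Id1 was higher with IL-1b than with its vehicle, and the part of dividing cells in the Id1 values was not tested.

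Id2 separated the arrays by pair. It read 434 with IL-1b and 260 with its vehicle, and 75.2 with PDGF-DD and 79.2 with its vehicle. Both arrays of the IL-1b pair were above both arrays of the PDGF-DD pair. Within the pairs Id2 was 1.67-fold higher with IL-1b and 1.05-fold lower with PDGF-DD, a PDGF-DD log2 ratio of -0.07 that turned to 0.01 on the values as deposited. Between the vehicles Id2 was 3.28-fold lower with the PDGF-DD vehicle, the opposite direction to Id1. The other Id2 probe set read 79.5 with IL-1b and 62.5 with its vehicle and was under the floor on both PDGF-DD arrays, so that the PDGF-DD vehicle was at least 2.23-fold below the IL-1b vehicle.

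Id3 read 2473 with IL-1b and 1570 with its vehicle, and 1867 with PDGF-DD and 3560 with its vehicle. The PDGF-DD vehicle array was the highest and the IL-1b vehicle array the lowest, 2.27-fold apart. Id3 was 1.58-fold higher with IL-1b and 1.91-fold lower with PDGF-DD, both under 2-fold. Against the other vehicle both directions turned, to 1.44-fold lower with IL-1b and 1.19-fold higher with PDGF-DD. Of the 3 ID genes, Id1 alone met the 2-fold rule against a factor's own vehicle.

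Smad6, an inhibitory SMAD that is itself induced by BMP signals, read 142 with IL-1b and 190 with its vehicle, and 143 with PDGF-DD and 145 with its vehicle. The IL-1b vehicle array was the highest and the other 3 were level. Smad6 was 1.34-fold lower with IL-1b and 1.02-fold lower with PDGF-DD, a log2 ratio of -0.02 that turned to 0.06 on the values as deposited and to 0.02 after quantile normalization. A second probe set read 101 with IL-1b and 194 with its vehicle, and 73.5 with PDGF-DD and 124 with its vehicle, 1.91-fold and 1.69-fold lower with the factors. Of the other 2 Smad6 probe sets, 1 was above the floor on the IL-1b pair only and 1 was at the floor on all 4 arrays.

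Grem1 encodes gremlin, a secreted protein that binds BMP2, BMP4 and BMP7 and keeps them from their receptors. It read 6382 with IL-1b and 6258 with its vehicle, and 5444 with PDGF-DD and 7600 with its vehicle. Its values lay within a narrow range on all 4 arrays. Grem1 was 1.02-fold higher with IL-1b, 1.40-fold lower with PDGF-DD, and 1.21-fold higher with the PDGF-DD vehicle than with the IL-1b vehicle. The 2-fold rule was met by Grem1, Bmpr1a, Smad6 and Bmp2 in none of the 3 comparisons.

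Adventitial fibroblast markers went with Bmp6 in part only. The 5 markers (Pdgfra, Pi16, Dpt, Dcn and Lum) each exceeded the floor on 1 array or more, and their summed intensity was 7845 with IL-1b and 2288 with its vehicle, and 652 with PDGF-DD and 1363 with its vehicle. Lum, at 6041, made up most of the IL-1b sum. Between the vehicles the sum was lower with the PDGF-DD vehicle, whereas Bmp6 was higher. At least 2-fold higher with IL-1b were 3 of 5 (11.6% of all genes in either direction). Their log2 ratios were at least 5.52 for Dpt, 2.16 for Pdgfra and 1.55 for Lum, while Pi16 and Dcn had 0.06 and 0.35. At least 2-fold lower with PDGF-DD was 1 of 4 measured (8.91%), Lum at -1.46. Pdgfra was at -0.70 there, Pi16 at -0.03 and Dpt at 0.63. Between the vehicles 2 of 5 were higher with the PDGF-DD vehicle, as Bmp6 was, namely Pdgfra (2.71-fold) and Dpt (at least 2.40-fold), and 2 were lower, Lum (2.02-fold) and Dcn (at least 2.23-fold), against 10.5% of all genes. The part of such cells in the Bmp6 values was not tested.

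The genes whose profiles lay closest to each member were sought among 9164 other genes above the floor on all 4 arrays, by the Euclidean distance between log2 intensities centred on their mean. With 4 arrays many genes share a profile by the few shapes available, so this is a description. Nearest to Bmp6 were RT1-Da, an MHC class II chain (distance 0.45), Cd74, the class II invariant chain (0.48), and Lbp, which binds lipopolysaccharide (0.64). Cd74 for example read 3379 with IL-1b and 106 with its vehicle, and 89.8 with PDGF-DD and 584 with its vehicle. Nearest to Bmp4 were Sh2d4a (0.22), the activin antagonist Fstl3 (0.25) and Etfbkmt (0.29).

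Members also lay near each other. Id3 was the second nearest gene to Bmpr2, and Bmpr2 the second nearest to Id3, at a distance of 0.17. Tmem119 (0.11) was nearer to Bmpr2, and Birc2, an inhibitor of apoptosis protein (0.14), nearer to Id3. Hfe, a regulator of iron uptake, was the third nearest to both, at 0.20 from Bmpr2 and 0.19 from Id3. Nearest to Id1 were Trim47 (0.25), the calcium-activated chloride channel Ano1 (0.38) and C9h6orf141 (0.49), and nearest to Id2 the collagen chain Col12a1 (0.31), the lipid kinase Pip5k1a (0.41) and Dock10 (0.62).

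Of 61 further BMP pathway genes in 6 lists, 51 were on the array under a single symbol. With IL-1b 2 of 39 measured were at least 2-fold higher and 5 lower, 17.9% together, with a median log2 ratio of -0.16. With PDGF-DD 0 of 35 were higher and 3 lower (8.57%, median -0.28), and between the vehicles 1 of 37 was higher and 3 lower (10.8%, median -0.26). Set beside 11.6%, 8.91% and 10.5% of all genes, the PDGF-DD and vehicle shares were near the background. On the values as deposited Tcf3 joined those higher with PDGF-DD, and after quantile normalization Bmper joined those lower, 4 of 37 in each case.

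**Figure D4:**
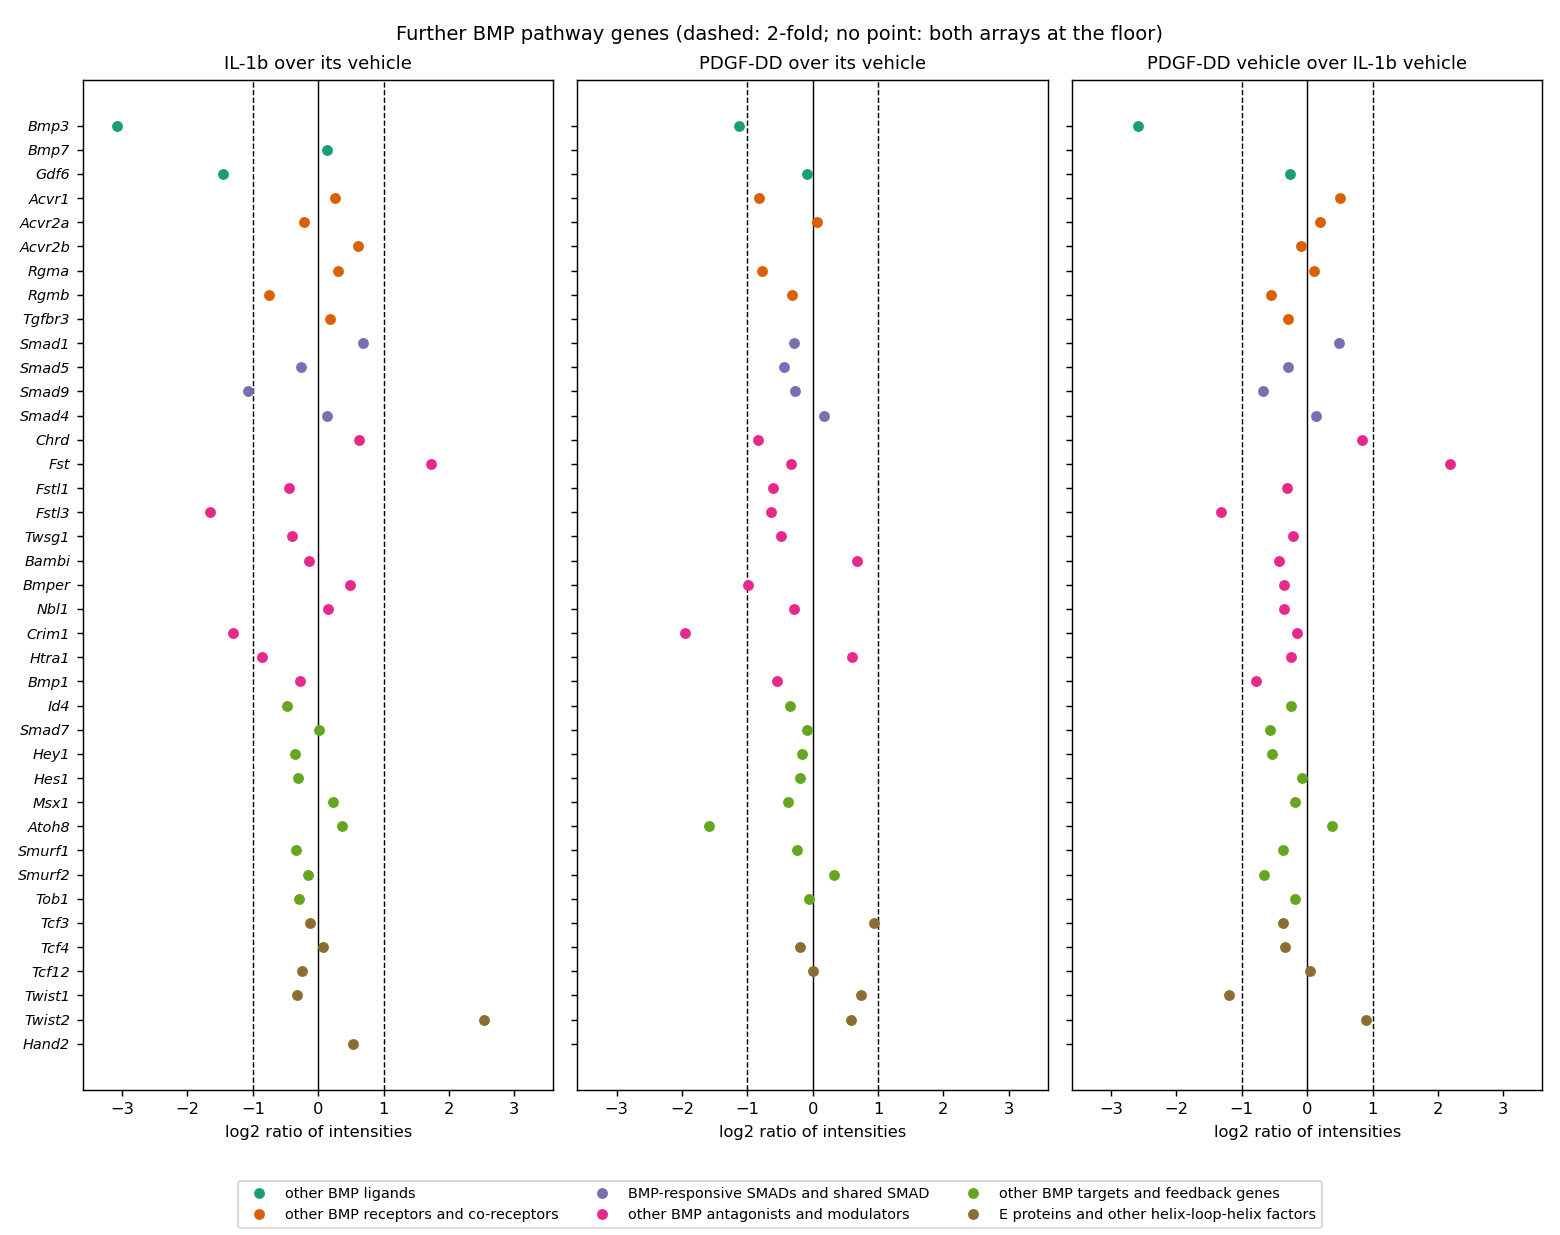
Log2 ratios of the further BMP pathway genes (rows, coloured by list) in the 3 comparisons, with dashed lines at 2-fold; a gene at the floor on both arrays of a comparison has no point there. Bmp3 lies left of the 2-fold line in each comparison, and the receptors and co-receptors lie between the dashed lines in each.

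Among other ligands, Bmp3, an atypical member that opposes other BMPs in bone, read 43.6 with IL-1b and 368 with its vehicle, and 21.9 with PDGF-DD and 61.3 with its vehicle. It was highest on the IL-1b vehicle array, like Bmp4. Its log2 ratio was -3.08 with IL-1b (vehicle limit 3.22), at most -1.13 with PDGF-DD, whose value was under the floor, and -2.58 between the vehicles. The log2 ratio of Gdf6 with IL-1b was -1.46 (30.9 against 84.8). Bmp7 was above the floor only with IL-1b, at 30.7, and Bmp5 and Bmp15 were at the floor on all 4 arrays.

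None of the 6 measured receptors and co-receptors was at least 2-fold from its vehicle with IL-1b, nor any of the 4 measured with PDGF-DD, against 11.6% and 8.91% of all genes. Acvr1, the type I receptor ALK2, read 1303 with IL-1b and 1085 with its vehicle, and 866 with PDGF-DD and 1533 with its vehicle. The endothelial type I receptor Acvrl1 and the co-receptor Eng were at the floor on all 4 arrays. Of the SMADs, Smad9 had a log2 ratio of -1.08 with IL-1b, where its intensity of 28.4 lay beside the floor. Smad1, Smad5 and Smad4 had log2 ratios of 0.68, -0.26 and 0.14 with IL-1b and of -0.28, -0.44 and 0.18 with PDGF-DD.

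The antagonists and modulators went both ways with IL-1b. Fst, follistatin, which binds activins and some BMPs, read 684 with IL-1b and 208 with its vehicle, and 747 with PDGF-DD and 942 with its vehicle. Its log2 ratio was 1.72 with IL-1b but 2.18 between the vehicles, and for IL-1b over the PDGF-DD vehicle it was -0.46. Fstl3 read 352 with IL-1b and 1115 with its vehicle, a log2 ratio of -1.66, and -0.34 against the PDGF-DD vehicle. Crim1, a membrane protein that binds BMPs, read 828 with IL-1b and 2057 with its vehicle, and 477 with PDGF-DD and 1840 with its vehicle. Crim1 was lower than both vehicle arrays on both treated arrays, with log2 ratios of -1.31 with IL-1b and -1.95 with PDGF-DD, of -1.15 and -2.11 against the other vehicle, and of -0.16 between the vehicles. Noggin (Nog) was at the floor on all 4 arrays, as were Chrdl1, Sost and Sostdc1.

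Of 9 measured further targets and feedback genes, 0 were at least 2-fold from the vehicle with IL-1b (11.6% of all genes) and 1, Atoh8, with PDGF-DD (8.91%), counts near the background. Atoh8, a helix-loop-helix factor, read 83.8 with IL-1b and 64.9 with its vehicle, and 27.5 with PDGF-DD and 84.3 with its vehicle, at least 1.59 lower on the log2 scale with PDGF-DD. Id4, the remaining ID gene, read 519 with IL-1b and 725 with its vehicle, and 484 with PDGF-DD and 611 with its vehicle. Its log2 ratios of -0.48 and -0.34 had the same sign with both factors, unlike those of Id3. Smad7, the other inhibitory SMAD, had log2 ratios of 0.02 and -0.09.

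Of the E proteins that IDs bind, Tcf4 and Tcf12 had log2 ratios of 0.07 and -0.25 with IL-1b and of -0.20 and 0.01 with PDGF-DD. Tcf3, which encodes E12 and E47, read 45.5 with IL-1b and 49.8 with its vehicle, and 73.8 with PDGF-DD and 38.6 with its vehicle, a log2 ratio of 0.94 with PDGF-DD. Twist2, a mesenchymal helix-loop-helix factor that pairs with E proteins, read 211 with IL-1b and 36.3 with its vehicle, and 101 with PDGF-DD and 67.6 with its vehicle. It had log2 ratios of 2.54 with IL-1b, 1.65 against the PDGF-DD vehicle and 0.58 with PDGF-DD. The IL-1b log2 ratio was inside its vehicle limit of 3.41, and the IL-1b vehicle value of 36.3 lay near the floor. Twist1, its close relative, read 237 with IL-1b and 298 with its vehicle, and 218 with PDGF-DD and 131 with its vehicle, and was lower on the PDGF-DD vehicle array by a log2 ratio of -1.19.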

How the data were processed

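RNA of 4 cultures was measured on Affymetrix rat arrays. The authors deposited MAS5 intensities on a linear scale (MAS5 is named in the submitters' processing notes, with no version or scaling target in the sources used here). The deposited IL-1b column had a median intensity of 53.3. Samples were grouped by their titles. All arrays were brought to a common mean after trimming the lowest and highest 2% of probe sets (factors 1.01 for IL-1b, 1.03 for its vehicle, 0.951 for PDGF-DD and 1.01 for its vehicle), values under the floor were set to it, and log2 ratios were taken with pandas 2.3.3 and numpy 2.4.6. Gene names came from the platform's annotation of 2016: 20832 had 1 symbol, 436 several and 9831 none, and 20764 of the 20832 matched a RefSeq gene of GRCr8 by gene identifier. The probe set of highest mean log2 intensity stood for a gene. A fold with 1 array at the floor is a lower bound. Genes at the floor on both arrays of a comparison were left out of it. With 1 array a group no test was run. Detection calls were not used here. Named genes are all members, further pathway genes at least 2-fold apart in any comparison, and 3 nearest profiles for members above the floor on all arrays and at least 2-fold apart. Acvr1, the SMADs, Id4, Smad7, Bmper, Tcf3, Tcf4, Tcf12, Mki67 and genes at the floor were named after their values were seen. The members and lists were chosen with earlier results of these data known. The steps were tested on simulated data. Alternatives were other scalings, floors, probe set rules, fold rules and the other vehicle array.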

Additional observations from a re-analysis of the deposited data

How the results depend on the processing

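No paired analysis was possible because each group is 1 array. With a 1.5-fold rule the count of members called was 6 with IL-1b and 5 with PDGF-DD in place of 3 each (25.0% of all genes in both comparisons), and with a 3-fold rule it was 3 between the vehicles in place of 6 (4.24% of all genes); these changes follow from the rule itself. A floor at the 20th percentile raised the share of all genes called to 17.6% with IL-1b, in place of 11.6%, and to 15.7% between the vehicles, in place of 10.5%. Over 169 member ratios recomputed with other scalings, floors or probe set rules, 166 kept their side of the 2-fold line and 3 moved across it. None of those at least 2-fold turned in sign, and 3 of those under 2-fold did (Id2 and Smad6 with PDGF-DD, all within 0.06 of 0 after turning). Of those that moved, Bmp2 between the vehicles reached -1.44 with the 20th percentile floor, and Id1 dropped to 0.36 with IL-1b and 0.37 between the vehicles with the 60th percentile floor, which lies above its IL-1b vehicle value. Against the other vehicle array 12 of 19 ratios kept their side of the 2-fold line, 7 crossed it (Bmp4 and Id2 with both factors, Bmp6 and Bmpr2 with PDGF-DD, Id1 with IL-1b) and, over all 19, 6 turned in sign. Of these 6, 2 had been at least 2-fold, Id1 with IL-1b at -0.01 and Bmpr2 with PDGF-DD at 0.08, and 4 had been under 2-fold (Bmpr2, Id3 and Grem1 with IL-1b at -0.47, -0.53 and -0.25, and Id3 with PDGF-DD at 0.25). With PDGF-DD 2076 of 10389 genes were called against the other vehicle, in place of 904 of 10142. These values thus depended on the vehicle array used. Each ratio to the other vehicle also crosses from one array pair to the other, and the cause was not tested. Signal over background limits Bmp2, Smad9 and the IL-1b vehicle value of Id1, which lie beside the floor. The PDGF-DD value of the second Bmp6 probe set, 30.6, also lies beside the floor.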
